A study of Mus musculus with 10 samples.

Results

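Transcripts of 6 neutrophil secondary and tertiary granule genes, Camp, Ngp, Ltf, Lcn2, Mmp8 and Mmp9, were compared between sorted hybrid and unfused cells. They were taken as every non-control probe of the arrays whose gene name is 1 of these 6, which gave 7 of 55681 probes and 16 of 59305 spots. The genes had been picked from earlier results on the same arrays, in which hybrid cells were set against unfused cells, so those comparisons are given below as description. Of the 6 genes, 5 passed the filter on dim probes and stood among the 32145 genes tested; Mmp9 did not.

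Secondary and tertiary granules are the storage compartments that a maturing neutrophil fills after its primary granules. Secondary granules carry antimicrobial and iron-sequestering proteins, and tertiary granules are rich in gelatinase. Most secondary granule genes are transcribed mainly in bone marrow precursors between the promyelocyte and the metamyelocyte, under C/EBP-epsilon and other factors. Their transcripts decline as the cell matures. In healthy brain tissue neutrophils are rare, and Lcn2 is the member of the set that reactive astrocytes and other glia are also known to make.

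The cells came from mice treated with the dopaminergic neurotoxin MPTP. At 3 days after the last injection, lineage-negative bone marrow cells containing haematopoietic stem and progenitor cells (HSPCs) were grafted on 1 side above the substantia nigra, and 1 week later the midbrain cells were dissociated and sorted. Each of the 5 groups has 2 arrays, and each array carries RNA pooled from 2 mice; mouse ages and strains are not given in the sources used here. R26Y hybrids are RFP+YFP+ cells from R26Y recipients (a Cre-activated YFP reporter) grafted with HSPCsCre/RFP. GFAP-Cre hybrids and FoxA2-Cre hybrids are RFP+YFP+ cells from GFAP-Cre and FoxA2-Cre recipients grafted with HSPCsR26Y, so that YFP marks fusion only with recipient cells in which that Cre driver has been active. The pooled unfused group is RFP+ cells combined from the R26Y and GFAP-Cre models, and the FoxA2-Cre unfused group is RFP+ cells of FoxA2-Cre recipients. All groups, controls included, share the MPTP treatment and the graft.

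R26Y hybrids, GFAP-Cre hybrids and pooled unfused cells were on 1 slide, and both FoxA2-Cre groups were on another. Spots well above background made up 64.3% to 86.7% of the spots on the arrays of the first slide and 19.8% to 49.2% on the FoxA2-Cre slide, and 0 spots were saturated. The second R26Y hybrid array stood apart: its rank correlation with the other 5 arrays of its slide was 0.677 to 0.711, against 0.903 to 0.969 among those 5. The FoxA2-Cre hybrid arrays occupied row 1 of their slide and the FoxA2-Cre unfused arrays row 2, so position and group cannot be told apart there. The file of the second FoxA2-Cre unfused array carries a sample number that the labels give to the second R26Y hybrid array. These 2 arrays had a rank correlation of 0.718 with each other, and the FoxA2-Cre unfused array had the same value, 0.718, with its own replicate. The second R26Y hybrid array had 0.743 with the first FoxA2-Cre unfused array, above its values with its own slide. The labels were followed, and whether the samples were mixed up was not tested. Nothing in the labels says more about how replicates were separated, so p-values measure the spread between pooled samples only.

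Each level is the background-subtracted signal on a log2 scale, from which the upper quartile of its array was subtracted, so a level of 0 is the brightness of the 75th percentile among spots well above background on all 10 arrays. Levels are compared between arrays for the same probe. The exceptions are means and sums over marker genes, taken from the same genes on every array, where a bright probe weighs most in a sum. In each case fewer cells that make a transcript and less of it per cell cannot be told apart. A member probe that is not well above background on an array is said to be so, and its level there is only a bound; for other genes this is said where no array of a group was well above background.

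Camp is measured by 2 probes that overlap by 50 bases and differ by 2 substitutions, A16G and T20C, counted from the 5′ end of the first probe. They serve as a near-repeat measurement of the same transcript, so the 30 bases around the differing letters (bases 12 to 41 of the first probe) are shown with those letters in capitals.
Camp probe 1: agccAgagTagtaggcctgccttggcctgt
Camp probe 2: agccGgagCagtaggcctgccttggcctgt
On build mm9 the first lies at chr9:109749911-109749970 and the second at chr9:109749901-109749950, both on the minus strand. Ngp (chr9:110324266-110324814, plus strand) and Ltf (chr9:110942873-110942932, plus strand) lie further along the same chromosome, with 574 kb between the Camp and Ngp probes and 618 kb between the Ngp and Ltf probes. The Mmp8 probe is at chr9:7568238-7568297 (plus), the Lcn2 probe at chr2:32240199-32240258 (minus) and the Mmp9 probe at chr2:164780620-164780679 (plus). Whether a probe lies in coding sequence or in a UTR was not analysed here. The first 30 bases of the Ngp probe, whose 60 bases span 549 bases of the genome, and of the Mmp9 probe, which is printed 10 times per array, are shown because the Ngp reading rests on 1 array in its highest group and Mmp9 is read near background on most arrays.
Ngp probe: gacagggattgcagtcgagaggatacccaa
Mmp9 probe: ccaaccttttccagctactttagtcaatca
No member probe shared a run of 20 bases with a probe of another gene (0 such genes for each of the 7 probes).

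Camp encodes cathelicidin, the precursor of an antimicrobial peptide stored in secondary granules. Its level was far higher in FoxA2-Cre unfused cells than in any other group: the 2 arrays read 1.66 and 2.35 (processed signals 2386 and 1972). The FoxA2-Cre hybrid arrays read -2.89 and -5.44, the second not well above background. On the other slide the pooled unfused arrays read -2.0 and -2.85, the R26Y hybrids -3.89 and -4.87, and the GFAP-Cre hybrids -2.69 and -4.74. Both FoxA2-Cre hybrid arrays and both R26Y hybrid arrays were below both unfused arrays of their slide, whereas the GFAP-Cre hybrids overlapped the pooled unfused cells. In the order of group means, FoxA2-Cre unfused cells came first (2.01 ± 0.49, SD, n = 2), followed by pooled unfused cells (-2.43 ± 0.60), GFAP-Cre hybrids (-3.71 ± 1.44), FoxA2-Cre hybrids (-4.16 ± 1.81) and R26Y hybrids (-4.38 ± 0.69). Only the step from the first to the second group was free of overlap.

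The fitted difference of Camp from the unfused cells of the slide was -6.17 ± 1.02 (log2, SE) in FoxA2-Cre hybrids, where 1 of the 2 arrays was well above background, so no fold is given. It was -1.95 ± 1.02 in R26Y hybrids and -1.29 ± 1.02 in GFAP-Cre hybrids. Without the second R26Y hybrid array the R26Y difference was -1.47, and without the second FoxA2-Cre hybrid array, the dimmest of the series, the FoxA2-Cre difference was -4.89. The second Camp probe gave -4.44 ± 0.64, -1.64 ± 0.64 and -0.99 ± 0.64 for FoxA2-Cre, R26Y and GFAP-Cre hybrids. The 2 probes ordered the first 2 groups alike. They disagreed most on the second FoxA2-Cre hybrid array, where the second probe read -3.11, also not well above background.

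Lcn2 encodes lipocalin 2, which withholds iron from bacteria by binding their siderophores. It was the single member well above background on all 10 arrays. The FoxA2-Cre unfused arrays read 4.69 and 2.69 (signals 19489 and 2491) and the FoxA2-Cre hybrid arrays 0.06 and -0.32 (signals 416 and 141). The pooled unfused arrays read 1.20 and 0.81, the GFAP-Cre hybrids 0.40 and 0.35, and the R26Y hybrids 0.56 and -0.75. Every hybrid array was below every unfused array of its slide in all 3 hybrid types. The group means ran from 3.69 ± 1.42 in FoxA2-Cre unfused cells through 1.00 ± 0.28 in pooled unfused cells and 0.37 ± 0.04 in GFAP-Cre hybrids to -0.09 ± 0.92 in R26Y hybrids and -0.13 ± 0.27 in FoxA2-Cre hybrids. The last 3 overlapped their neighbours in that order.

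For Lcn2 the fitted difference was -3.82 ± 0.77 in FoxA2-Cre hybrids (a fold of 14.1), -1.10 ± 0.77 in R26Y hybrids and -0.63 ± 0.77 in GFAP-Cre hybrids. The R26Y value was -0.45 without its second array and -1.75 without its first. Without the second FoxA2-Cre hybrid array the FoxA2-Cre value was -3.63.

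**Figure D1:**
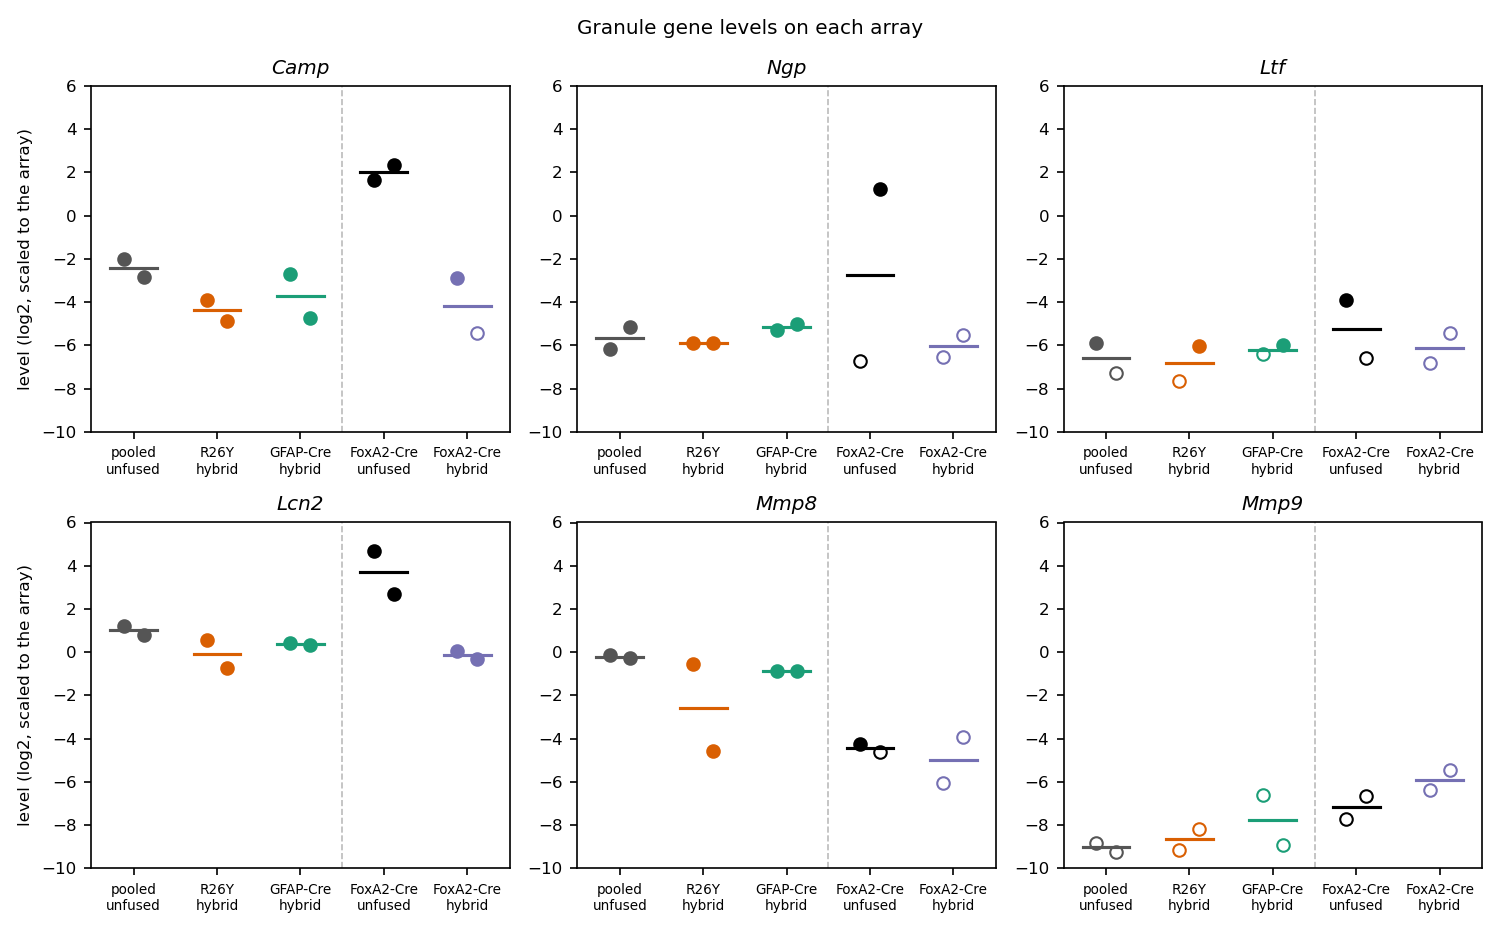
Level of each gene on each array (y axis, log2 signal relative to the upper quartile of the array) in the 5 groups (x axis), with the first probe shown for Camp. Points are single arrays, filled where the probe was well above background and open where it was not; horizontal lines are group means, and the dashed line separates the slides. Camp and Lcn2 are highest in both FoxA2-Cre unfused arrays, Mmp8 is high on 5 of the 6 arrays of the first slide, and all Mmp9 points are open.

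Ngp encodes neutrophilic granule protein, a cystatin-like protein of secondary granules. Its reading rested on 1 array: the second FoxA2-Cre unfused array read 1.25 (signal 920), while the first read -6.74 (signal 7.05) and was not well above background. Neither FoxA2-Cre hybrid array was well above background (-6.55 and -5.51). On the first slide all arrays were well above background but low, at -6.16 and -5.17 in pooled unfused cells, -5.90 and -5.88 in R26Y hybrids and -5.27 and -5.02 in GFAP-Cre hybrids. The means were -2.74 ± 5.65 in FoxA2-Cre unfused cells, -5.15 ± 0.18 in GFAP-Cre hybrids, -5.67 ± 0.70 in pooled unfused cells, -5.89 ± 0.012 in R26Y hybrids and -6.03 ± 0.74 in FoxA2-Cre hybrids, and each group overlapped the next.

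The fitted Ngp difference was -3.29 ± 2.12 in FoxA2-Cre hybrids. Neither hybrid array and only 1 unfused array was well above background, so no fold is given. Without the second FoxA2-Cre unfused array the sign turned, to 0.71, and without the first the difference was -7.29. In R26Y hybrids the difference was -0.23 ± 2.12, and in GFAP-Cre hybrids it was 0.52 ± 2.12; with slide column as a block these were 0.78 and 3.15. The R26Y sign turned under 5 of 23 alternatives, among them quantile scaling (0.27) and leaving out the second pooled unfused array (0.27).

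Ltf encodes lactoferrin, the iron-binding protein that gives secondary granules their classical marker. It was well above background on 4 of the 10 arrays: the first FoxA2-Cre unfused array (-3.91, signal 50.1), the second R26Y hybrid array (-6.04), the first pooled unfused array (-5.89) and the second GFAP-Cre hybrid array (-6.0). The other array of each of these groups read -6.60, -7.63, -7.27 and -6.42, and the FoxA2-Cre hybrid arrays read -6.82 and -5.43, none of them well above background. All 5 groups overlapped, with means from -6.84 ± 1.12 in R26Y hybrids to -5.25 ± 1.90 in FoxA2-Cre unfused cells. The fitted differences were -0.26 ± 1.04, 0.37 ± 1.04 and -0.87 ± 1.04 in R26Y, GFAP-Cre and FoxA2-Cre hybrids. The R26Y sign turned under 7 of 22 alternatives. The FoxA2-Cre value turned to 0.35 with normexp background correction and to 0.47 without the first FoxA2-Cre unfused array, and the GFAP-Cre value to -0.32 without the second pooled unfused array. Within the FoxA2-Cre unfused pair, Ltf was read on the array on which Ngp was not, and Ngp on the array on which Ltf was not.

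Mmp8 encodes neutrophil collagenase, a secondary granule protease that cuts fibrillar collagen. On 5 of the 6 arrays of the first slide it read above every FoxA2-Cre array. The pooled unfused arrays read -0.15 and -0.29 (signals 1617 and 2062), the GFAP-Cre hybrids -0.86 and -0.86 (signals 905 and 1451), and the R26Y hybrids -0.56 and -4.57 (signals 1389 and 59.4). On the FoxA2-Cre slide the unfused arrays read -4.27 and -4.63, the second not well above background, and neither hybrid array was well above background (-6.05 and -3.92). The hybrid arrays of the first slide were all below the pooled unfused arrays, the second R26Y hybrid array by far the most.

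The Mmp8 means were -0.22 ± 0.10 in pooled unfused cells, -0.86 ± 0.0022 in GFAP-Cre hybrids, -2.57 ± 2.83 in R26Y hybrids, -4.45 ± 0.25 in FoxA2-Cre unfused cells and -4.99 ± 1.51 in FoxA2-Cre hybrids. Pooled unfused cells and GFAP-Cre hybrids did not overlap, and every later neighbour did. The fitted difference was -2.35 ± 1.24 in R26Y hybrids, -0.64 ± 1.24 in GFAP-Cre hybrids and -0.54 ± 1.24 in FoxA2-Cre hybrids. The FoxA2-Cre value turned to 0.48 with normexp, to 0.53 without the first FoxA2-Cre hybrid array and to 1.46 with slide row as a block; row and group coincide on that slide, so the row term there is estimated from the other slide. With slide column as a block the GFAP-Cre value turned to 1.35. A single array set the R26Y value, which was -0.34 without the second R26Y hybrid array and -4.35 without the first.

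Mmp9 encodes gelatinase B, the enzyme that defines tertiary granules. Its probe has 10 spots per array, and it was not well above background on any array. Of the 10 spots, 3 were well above background on the first GFAP-Cre hybrid array (median signal of the 10 spots 17.4) and 1 on the first FoxA2-Cre hybrid array (median 3.97), against 0 on the other 8 arrays. On those 8 the median signal ran from 3.26 to 5.24. The level of Mmp9 is therefore a bound in every group, no fold is given, and a difference between groups was not detectable at this signal.

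**Figure D2:**
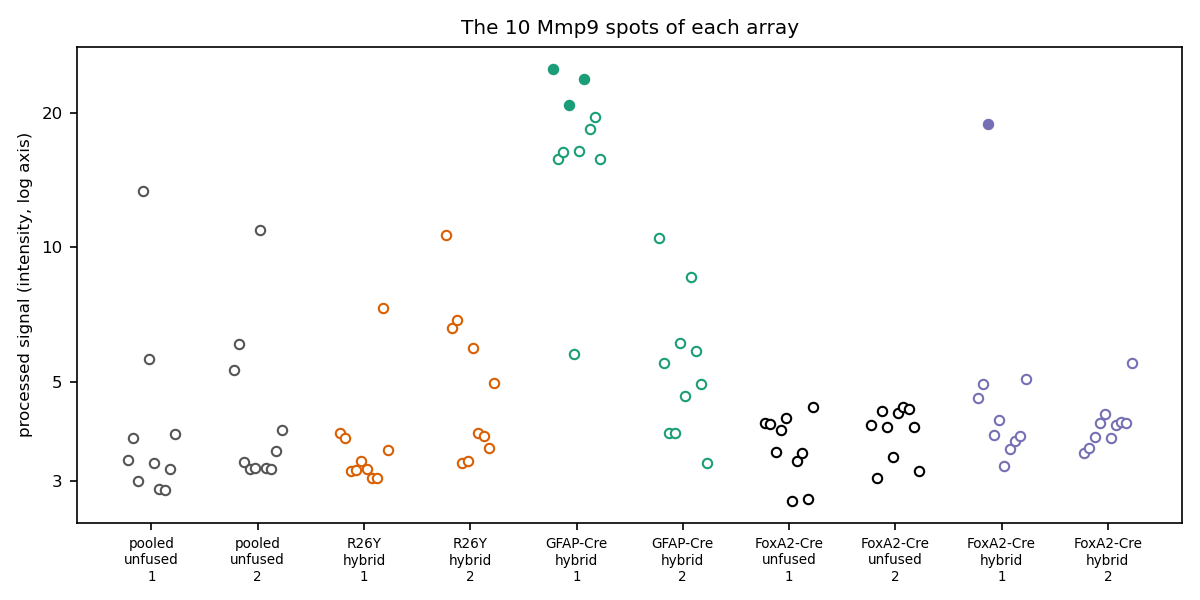
Processed signal of each of the 10 Mmp9 spots (y axis, intensity, log axis) on each of the 10 arrays (x axis, group and replicate number). Filled points are spots well above background: 3 on the first GFAP-Cre hybrid array and 1 on the first FoxA2-Cre hybrid array.

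Across hybrid types, 7 of the 18 pairs of a gene and a hybrid type had both hybrid arrays below both unfused arrays of the slide. In R26Y hybrids these were 3 of the 5 tested members (Camp, Lcn2 and Mmp8), where 19.6% of all genes met the same condition. GFAP-Cre hybrids had 2 of 5 (Lcn2 and Mmp8) against 14.4% of all genes, and FoxA2-Cre hybrids had 2 of 5 (Camp and Lcn2) against 10.6%. These contrasts guided the choice of the genes, so nothing is read from the counts. The median log2 difference of the 5 members was -1.10 in R26Y hybrids (all genes -0.26), -0.63 in GFAP-Cre hybrids (all genes 0.03) and -3.29 in FoxA2-Cre hybrids (all genes 0.36). The last is the value of Ngp and rests on 1 unfused array; without that array the median was -2.21. The all-gene median in R26Y hybrids moved with the scaling and was at most 0.077 with normexp, all spots, quantile scaling or the authors' matrix. The same 2 pooled unfused arrays served both R26Y and GFAP-Cre hybrids, so those differences are not independent.

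Because these contrasts guided the choice, no p is given for the members in them. Over all genes, after Benjamini-Hochberg adjustment in limma, 0% passed 0.05 in R26Y hybrids, 0% in GFAP-Cre hybrids and 0.529% in FoxA2-Cre hybrids (170 genes, 17 higher and 153 lower). In R26Y and GFAP-Cre hybrids 445 and 520 genes had an unadjusted p under 0.05. With the authors' log2 matrix the FoxA2-Cre split was 39 higher and 129 lower.

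**Figure D3:**
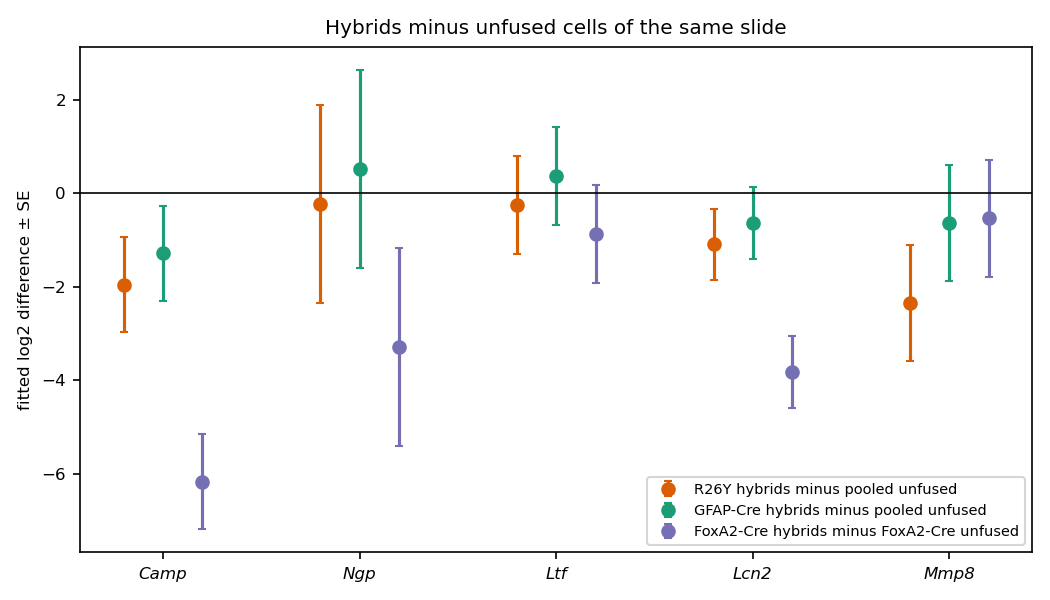
Fitted log2 difference (y axis; points, with bars of 1 SE from the limma fit) of each hybrid type from the unfused cells of its own slide, for the 5 genes that passed the filter (x axis). The FoxA2-Cre points of Camp (-6.17) and Lcn2 (-3.82) lie below those of the other hybrid types, and the Ltf bars cross 0 in all 3 hybrid types.

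The comparison of GFAP-Cre with R26Y hybrids, which lie on the same slide, was not used in choosing the genes. Its arrays are those of comparisons that were, so its p-values are not independent of that choice. All 5 tested members were higher on average in GFAP-Cre hybrids, and none of the differences passed the test. They were 0.67 ± 1.02 for Camp, 0.74 ± 2.12 for Ngp, 0.63 ± 1.04 for Ltf, 0.47 ± 0.77 for Lcn2 and 1.71 ± 1.24 for Mmp8 (log2, SE). The unadjusted p-values from limma ran from 0.208 (Mmp8) to 0.734 (Ngp), and every adjusted p was 0.9998. Ngp was the 1 member of 5 whose GFAP-Cre arrays were both above both R26Y arrays, a condition met by 20.2% of all genes. The median difference of the members was 0.67, against 0.29 over all genes, and 33.1% of all genes were lower in GFAP-Cre hybrids. Both all-gene values rest on the scaling: the median was 0.065 with normexp, -0.068 with all spots, -0.031 with quantile scaling and 0.00041 with the authors' matrix. Over all genes 0% passed the adjusted threshold, and 2.74% (881 genes) had an unadjusted p under 0.05, with 0 of the 5 members among them. The members' signs leaned on the second R26Y hybrid array: without it the Lcn2 difference was -0.18 and the Mmp8 difference -0.30.

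The second tested comparison set FoxA2-Cre unfused cells against pooled unfused cells. Both groups are the references of the comparisons that guided the choice of the genes. A choice by low levels in hybrids can favour genes that read high on these unfused arrays. The p-values of this comparison are therefore not independent of that choice. Camp and Lcn2 were on average higher in the FoxA2-Cre unfused cells and Mmp8 lower, with no overlap of arrays, but none passed the adjusted threshold. Camp differed by 4.43 ± 1.02 (a fold of 21.6; limma adjusted p = 0.164), higher on 2 of 2 arrays. Lcn2 differed by 2.69 ± 0.77 (a fold of 6.44; limma adjusted p = 0.208), also on 2 of 2 arrays. Mmp8 differed by -4.23 ± 1.24 (limma adjusted p = 0.211), lower on 2 of 2 arrays, 1 of them not well above background. Ngp (2.92 ± 2.12, adjusted p = 0.515) and Ltf (1.33 ± 1.04, adjusted p = 0.552) overlapped.

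In that comparison 0 of 5 members passed, against 0.165% of all genes (53, of which 10 were higher and 43 lower). That split rested on the scaling: with normexp background correction it was 33 higher and 15 lower, and with the 75th percentile over all spots 9 higher and 7 lower, while Camp, Lcn2 and Mmp8 kept their direction under both. Without adjustment, 3 members had a p under 0.05 (Camp, Lcn2 and Mmp8), as did 17.4% of all genes. The share of all genes with FoxA2-Cre unfused arrays above pooled unfused arrays was 14.9%, and with arrays below them 42.6%. Recipient set, slide and scan coincide here and cannot be told apart. Spots well above background were fewer on the FoxA2-Cre unfused arrays (49.2% and 34.8%) than on the pooled unfused arrays (82.8% and 86.7%), and the part of this in the lower Mmp8 reading was not tested.

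Over the 10 arrays, Camp and Lcn2 followed each other with a Pearson r of 0.90, and of 0.87 once the mean of each slide was removed. The 2 Camp probes had r = 0.94 (0.96 with slide means removed). Camp and Ngp had 0.51 (0.46), Ltf and Lcn2 0.53 (0.42), and Mmp8 ran slightly against Camp (-0.25) and Lcn2 (-0.13) overall but with them within slides (0.24 and 0.41). These values describe 10 arrays in 5 groups and 2 slides, which share scaling and position, and carry no test.

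**Figure D4:**
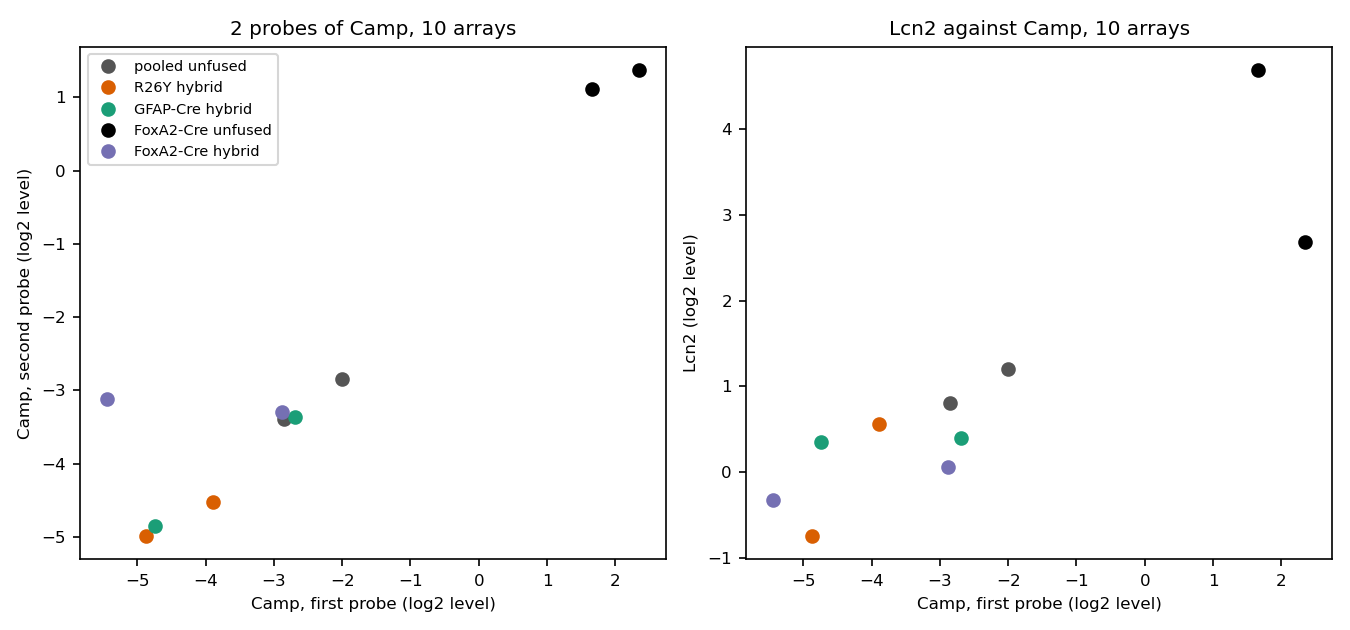
Level of the second Camp probe (left) and of Lcn2 (right) against the level of the first Camp probe on the 10 arrays (all axes log2, scaled to the array; points are arrays, coloured by group). The 2 FoxA2-Cre unfused arrays lie at the upper right of both panels, and the second FoxA2-Cre hybrid array, dim for both Camp probes, leaves the line in the left panel.

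By the highest Pearson r with the mean profile of the 5 tested members, among 15138 genes well above background on at least 5 arrays, the 10 nearest genes were Rps23 (0.97), Cfl1 (0.96), Anp32b (0.96), Rab11fip2 (0.95), Vmn2r77 (0.95), Antxr2 (0.95), Nsun7 (0.94), Psma2 (0.94), Ddx5 (0.94) and Polr1d (0.94). None of them belongs to the granule lists. The ranking was not stable: leaving out either FoxA2-Cre unfused array left 0 of these 10 among the nearest 10.

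The promoters of the members were looked at because Camp and Lcn2 moved together. RefSeq's table of promoters (build GRCm38.p6) held 5 of the 6 members; Mmp9 has no entry. The C/EBP-type motif TTNNGNAA was searched on both strands in the 250 bases before the gene start. It matched in 4 of the 5, against 36.8% of all 32851 promoters. Ngp had 3 matches (starting at -138, -102 and -11 relative to the gene start), Ltf 2, Mmp8 2 and Lcn2 1 (at -216), and Camp had 0. The PU.1-type motif GAGGAA matched in 3 of the 5 (Lcn2, Ltf and Mmp8), against 23.3% of all promoters, and no match of it overlapped a C/EBP match. The 250 bases upstream are shown 5′ to 3′ on the strand of the gene for the pair that moved together and for Ngp, which has the most matches, with the TTNNGNAA matches in capitals: Camp at chr9:109849457-109849706 (minus), Lcn2 at chr2:32387740-32387989 (minus) and Ngp at chr9:110419558-110419807 (plus).
Camp promoter: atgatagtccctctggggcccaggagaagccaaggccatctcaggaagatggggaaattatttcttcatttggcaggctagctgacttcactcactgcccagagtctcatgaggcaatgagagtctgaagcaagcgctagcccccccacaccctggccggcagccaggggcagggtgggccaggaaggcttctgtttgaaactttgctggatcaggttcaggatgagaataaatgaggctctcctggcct
Lcn2 promoter: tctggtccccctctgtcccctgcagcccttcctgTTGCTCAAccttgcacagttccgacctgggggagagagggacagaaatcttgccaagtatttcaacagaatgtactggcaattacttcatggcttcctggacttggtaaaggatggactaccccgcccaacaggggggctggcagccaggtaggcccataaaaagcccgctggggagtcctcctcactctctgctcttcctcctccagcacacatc
Ngp promoter: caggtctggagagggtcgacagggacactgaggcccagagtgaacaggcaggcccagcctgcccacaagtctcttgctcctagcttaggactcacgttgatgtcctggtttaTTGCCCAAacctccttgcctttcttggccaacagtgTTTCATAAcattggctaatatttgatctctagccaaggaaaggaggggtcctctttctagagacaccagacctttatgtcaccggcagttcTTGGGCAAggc
A match describes letters only. The C/EBP-type motif is found in 36.8% of all promoters, so its matches cannot show why Camp and Lcn2 moved together, which was not tested.

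Around the 6 genes, lists of other granule and neutrophil genes were examined in the same fits. These lists, too, were chosen with earlier results of these arrays known. The adjusted p-values of list genes in hybrids against unfused cells, here and below, are therefore description and not an independent test. Primary granule genes encode the peroxidase and serine proteases of the earlier compartment. In FoxA2-Cre hybrids 1 of 7 fell, Mpo (myeloperoxidase), at least 60.5-fold (-7.89 ± 1.05; limma adjusted p = 0.0260). The arrays of FoxA2-Cre unfused cells read 1.79 and 1.55 for Mpo, and those of FoxA2-Cre hybrids -6.77 and -5.66, neither well above background. Elane (neutrophil elastase) differed by -2.48 ± 1.68 with an adjusted p of 0.680, Prtn3 by 1.55 (well above background on neither unfused array) and Bpi by -1.57 (on neither hybrid array). Among 18 other secondary and tertiary granule genes, 1 fell in FoxA2-Cre hybrids: Pglyrp1, a peptidoglycan-binding bactericidal protein, at least 84.1-fold (-6.92 ± 0.99; limma adjusted p = 0.0349). Its unfused arrays read 4.06 and 0.85 and its hybrid arrays -4.41 and -4.52, neither well above background. Lrg1 (-1.57), Cybb (-3.38), the gp91-phox subunit of the oxidase, and Fpr1 (-2.29, on neither hybrid array), a formyl peptide receptor, did not pass. For Cybb the FoxA2-Cre unfused arrays lay far apart (-0.78 ± 4.70, SD).

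Among 14 genes of the neutrophil cytosol and surface, 1 fell in FoxA2-Cre hybrids, S100a9, a subunit of calprotectin, at least 201-fold (-8.60 ± 1.33; limma adjusted p = 0.0473). Its unfused arrays read 3.20 and 3.61 and its hybrid arrays -6.78 and -3.61, neither well above background. S100a8, the partner subunit, differed by -3.30 ± 2.27 (adjusted p = 0.684; on neither hybrid array), and Csf3r, the receptor for granulocyte colony-stimulating factor, by 0.72 ± 0.49 (adjusted p = 0.683). The list medians in FoxA2-Cre hybrids were -0.55 for the primary granule genes, -0.92 for the other secondary and tertiary granule genes and 0.75 for the cytosol and surface genes, with 0.36 over all genes. The share of all genes that fell past the threshold was 0.476%. These 3 calls depend on the processing: Mpo passed under 12 of 23 alternatives, Pglyrp1 under 11 of 23 and S100a9 under 9 of 23, with largest adjusted p of 0.477, 0.473 and 0.414. With slide row as a block, a term estimated from the other slide, the adjusted p was 0.399, 0.345 and 0.414. Leaving out 1 array ended the Mpo call for either GFAP-Cre hybrid array, the first FoxA2-Cre hybrid array or the first FoxA2-Cre unfused array (limma adjusted p = 0.0665 to 0.0847). It ended the Pglyrp1 call for either pooled unfused, GFAP-Cre hybrid or FoxA2-Cre hybrid array (0.0813 to 0.103), and the S100a9 call for either pooled unfused, GFAP-Cre hybrid or FoxA2-Cre unfused array or the first FoxA2-Cre hybrid array (0.0683 to 0.125). With the mean of all Mpo probes in place of the brightest, the Mpo difference was -3.06.

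On the first slide none of these lists had a member past the adjusted threshold (0 of 7, 0 of 18 and 0 of 14 in R26Y and in GFAP-Cre hybrids). Mpo still had the smallest p of its list there, with -4.31 ± 1.05 in R26Y and -3.86 ± 1.05 in GFAP-Cre hybrids (limma adjusted p = 0.9996 and 1.00), and its hybrid arrays did not overlap the pooled unfused arrays. S100a9 gave -3.80 ± 1.33 and -2.42 ± 1.33 in the same comparisons (same adjusted p-values), again without overlap. Olfm4 (olfactomedin 4), a gene of a subset of neutrophils, differed by -2.56 in R26Y hybrids. Between FoxA2-Cre unfused and pooled unfused cells, Pglyrp1 (5.29 ± 0.99, adjusted p = 0.108), Mpo (3.97 ± 1.05, adjusted p = 0.192) and S100a9 (3.45 ± 1.33, adjusted p = 0.254) were higher without overlap but did not pass. Others were lower without overlap, among them Prtn3 (-2.73), Olfm4 (-4.03), Fpr2 (-4.13) and Stfa3 (-3.35). Each of these was well above background on neither FoxA2-Cre unfused array, and none passed. The medians of the 3 lists there were -1.48 (primary granule), 0.24 (other secondary and tertiary granule) and -0.93 (cytosol and surface). Over all genes the median was -0.46. Between GFAP-Cre and R26Y hybrids Olfm4 (3.17), Fpr2 (3.51) and Ptx3 (1.77) did not pass either.

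The list of 8 genes made up of granule transcription factors and the cytokine gene Csf3 had 0 members past the threshold in all 5 comparisons. Cebpb differed by -4.64 ± 2.52 in FoxA2-Cre hybrids (adjusted p = 0.632) and by 7.93 ± 2.52 between FoxA2-Cre unfused and pooled unfused cells (adjusted p = 0.216), where both FoxA2-Cre arrays were higher. The FoxA2-Cre hybrid arrays lay far apart for Cebpb (-1.82 ± 6.55, SD), with 1 of 2 well above background. The Cebpb difference in these hybrids therefore leans on 1 array. Spi1, which encodes PU.1, differed by -1.03 in FoxA2-Cre hybrids. Cebpd (1.63) and Gfi1 (1.81) differed the other way there, both on none of the 4 FoxA2-Cre arrays. Of the 8 genes 3 were below 0 in FoxA2-Cre hybrids, with a list median of 0.86, against 0.36 over all genes. The 9 measured receptors and inhibitors of the granule proteins also had 0 past it, with Slc22a17, a receptor for lipocalin 2, at -1.41 in FoxA2-Cre hybrids and Lrp2 (megalin) well above background on none of the 4 FoxA2-Cre arrays. For Slc22a17 the FoxA2-Cre unfused arrays lay far apart (0.06 ± 4.26, SD). Of the other matrix metalloproteinases, 19 of 21 were tested and 0 passed. In FoxA2-Cre hybrids Mmp21 differed by -5.06 (on neither hybrid array, at least 16.5-fold). Its FoxA2-Cre unfused arrays lay far apart (-0.21 ± 6.38, SD), so that bound leans on 1 of them. Mmp3 differed by 3.34 in FoxA2-Cre hybrids (on neither unfused array and 1 of 2 hybrid arrays). Mmp14 differed by 1.69 and 1.88 in R26Y and GFAP-Cre hybrids and was on neither pooled unfused array, so these levels are bounds too.

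Some markers of neutrophils moved with the FoxA2-Cre differences and others did not. Of 8 markers (Ly6g, S100a8, S100a9, Csf3r, Cxcr2, Retnlg, Elane and Mpo), 2 fell in FoxA2-Cre hybrids (S100a9 and Mpo), 4 differed by less than 0 in all, and Ly6g differed by 3.48 (limma adjusted p = 0.672; on 1 of 2 arrays in each group). Of the 8, 5 to 6 were well above background on the FoxA2-Cre unfused arrays and 2 to 3 on the FoxA2-Cre hybrid arrays, where S100a8, S100a9, Retnlg and Mpo were on neither array. The mean level of the 8 was -1.84 to -0.59 on FoxA2-Cre unfused arrays, -4.06 to -2.52 on FoxA2-Cre hybrid arrays, -1.90 to -1.47 on pooled unfused arrays, -3.54 to -2.95 on GFAP-Cre hybrid arrays and -4.52 to -2.93 on R26Y hybrid arrays. The log2 of their summed level, which on the FoxA2-Cre slide is almost wholly Csf3r (mean 6.81 in unfused cells and 7.53 in hybrids), was 6.76 to 7.23 on FoxA2-Cre unfused arrays, 7.39 to 7.69 on FoxA2-Cre hybrid arrays, 5.74 to 6.11 on pooled unfused arrays, 5.76 to 5.93 on GFAP-Cre hybrid arrays and 5.70 to 6.03 on R26Y hybrid arrays. The part of neutrophils in the levels of the 6 genes was not tested. Markers of microglia, the resident macrophages of the brain, were on average higher in FoxA2-Cre hybrids, with 0 of 11 past the threshold and 3 of 11 below 0. Their mean level was -3.51 to -2.85 on FoxA2-Cre unfused arrays and -2.04 to -1.38 on hybrid arrays, and the log2 of the summed level 3.82 to 4.14 and 6.22 to 7.30. Trem2 differed by 6.02 (limma adjusted p = 0.578), Cx3cr1 by 2.64 (0.446) and Aif1 by 5.51 (0.610; on neither unfused array and 1 of 2 hybrid arrays). For Trem2 the FoxA2-Cre unfused arrays lay far apart (-0.58 ± 5.34, SD). On the first slide the mean level of the microglia markers was -3.60 to -3.31 in pooled unfused cells, -2.79 to -2.33 in GFAP-Cre hybrids and -3.37 to -3.16 in R26Y hybrids. The part of microglia in the results was not tested. The sorted cells were also checked against their other labels. Of the 7 tested progenitor markers, Kit, Cd34 and Meis1 were well above background on neither FoxA2-Cre hybrid array, and 3 to 4 were on each. Among the FoxA2-Cre unfused arrays of the same slide, 5 of 7 were on each, with Meis1 on neither and Kit and Cd34 on 1 of 2. On the first slide all 7 were on every array. Gfap was on none of the 4 FoxA2-Cre arrays. In GFAP-Cre hybrids Gfap was on both arrays and differed by -1.14 ± 0.70 (SE) from pooled unfused cells. There 6 of 7 tested astrocyte markers were below 0, as were 46.6% of all genes, and 0 passed the threshold. R26Y hybrids, set against the same pooled unfused arrays, also had 6 of 7 below 0 (64.2% of all genes), with Gfap at -1.78 ± 0.70 (SE). Of the 9 markers of dopaminergic and other neurons, Slc6a3, Slc18a2 and Foxa2 were on neither FoxA2-Cre hybrid array, and 2 to 6 were on each. Th was on both hybrid arrays, and Nr4a2 and Pitx3 were on 1 of 2. Among the FoxA2-Cre unfused arrays, 5 to 7 of the 9 were on each, with Slc18a2 and Nr4a2 on neither and Foxa2 on both.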

How the data were processed

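RNA of FACS-sorted cells, amplified with a whole-transcriptome kit and labelled with Cy3 (500 ng of cDNA), was hybridised to 1-colour Agilent mouse 8x60K arrays (62976 spots), 1 array per sample. Per the file headers, the authors extracted spots with Agilent Feature Extraction 10.7.3.1, and each deposited spot table gives intensities: a mean signal, the local background, and a processed signal from which background and a spatial trend had been removed, with no scaling between arrays. The same deposited tables hold 0 or 1 marks per spot, of which those for well above background, non-uniform, population-outlier and saturated spots were used. A series-wide matrix of log2 values was deposited too, normalised within each slide by a method not given in the sources used here, which served as an alternative. It was not used between slides. All columns matched a sample (0 unmatched).

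Processed signals were put on a log2 scale, and from each array its own 75th percentile was subtracted, computed on the spots that were well above background on every one of the 10 arrays. Spots marked as non-uniform were dropped, and repeat spots were averaged per probe; a probe counted as well above background where most of its spots were. Probes well above background on at least 2 arrays were kept, and a gene took the values of its brightest probe on average, which left 32145 genes. The number of arrays limits the precision. Names came from the array annotation, updated through RefSeq accessions (27422 probes matched, 2787 changed name). Where a group had no array well above background, its fold is a bound ("at least"): the dim group's level was replaced on each array by the lowest level among probes well above background, if that was higher. No fold is given where an array of the brighter group was also not well above it.

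Group means of all 10 arrays were compared in limma 3.58.1 (R 4.3.3; two-sided moderated tests, 5 residual degrees of freedom, Benjamini-Hochberg over all genes, threshold 0.05); the script was checked on simulated data. The members, the lists and the comparisons were chosen with earlier results of these data known, and the 3 comparisons of hybrids with unfused cells carry no p for members. Named genes are the 6 members, Mpo, Elane and S100a9, up to 4 genes per list with the smallest p in a comparison, and the 10 genes nearest the members' mean profile. Alternatives were normexp (offset 50), percentile over all spots, quantile scaling, the authors' matrix, other filters on dim probes, the mean of a gene's probes, blocks by slide row, by slide column and by replicate number, array weights, the compared arrays alone and leaving out each array. Leaving out population-outlier spots was added after the data were seen.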

Additional observations from a re-analysis of the deposited data

Results flagged for a closer look

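Ngp lay in opposite directions in different hybrid types, each array being set against the mean of the unfused cells of its slide. Both R26Y hybrid arrays were below it (-0.24 and -0.22) and both GFAP-Cre hybrid arrays above it (0.39 and 0.64), a difference of -0.74 between the R26Y and GFAP-Cre means. Both R26Y hybrid arrays lay within the range of the pooled unfused arrays (-6.16 and -5.17), and the R26Y difference turned positive under 5 of 23 alternatives (0.11 with all spots, 0.27 with quantile scaling, 0.044 with the authors' matrix, 0.78 with slide column as a block and 0.27 without the second pooled unfused array), under which the opposite directions were not seen. Both FoxA2-Cre hybrid arrays were below theirs (-3.81 and -2.77), which puts the GFAP-Cre mean 3.81 above the FoxA2-Cre mean. The FoxA2-Cre reference for Ngp rests on 1 of 2 unfused arrays, and neither FoxA2-Cre hybrid array was well above background. Ltf did the same between GFAP-Cre hybrids (0.16 and 0.58) and FoxA2-Cre hybrids (-1.57 and -0.17), a difference of 1.24, and it was not well above background on either FoxA2-Cre hybrid array. The FoxA2-Cre value of Ltf turned to 0.35 with normexp and 0.47 without the first FoxA2-Cre unfused array, and the GFAP-Cre value to -0.32 without the second pooled unfused array. For the R26Y and GFAP-Cre hybrids the direct comparison in limma gave an adjusted p of 0.9998; the differences between GFAP-Cre and FoxA2-Cre hybrids were not tested.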

How the results depend on the processing

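No member passed the adjusted threshold in the tested comparisons (0 of 5 each). Between FoxA2-Cre unfused and pooled unfused cells this count was 1 with normexp (Camp), 2 with the compared arrays alone (Camp and Mmp8), and 0 to 2 with arrays left out in turn (Camp and Mmp8 without either R26Y hybrid array, Ngp without the first FoxA2-Cre unfused array). Where leaving out an array left 1 in a group, that array was assumed to vary like those of the other groups. Under the alternatives run, Camp kept its sign in FoxA2-Cre hybrids (-6.71 to -3.80, and -7.45 to -4.89 with arrays left out), as did Lcn2 (-3.82 to -3.00, and -4.82 to -2.82). The differences that turned sign between GFAP-Cre and R26Y hybrids were Camp (-0.50 with slide column as a block, and -0.36 to 1.69 with arrays left out, lowest without the first GFAP-Cre array), Ltf (-0.13 with quantile scaling, -0.027 with the authors' matrix, and -0.17 to 1.42, lowest without the first R26Y array), Lcn2 (-0.18 to 1.12) and Mmp8 (-0.30 to 3.71), both lowest without the second R26Y array. Between FoxA2-Cre unfused and pooled unfused cells they were Ngp (-1.08 to 6.92, lowest without the second FoxA2-Cre unfused array) and Ltf (-0.018 to 2.67, lowest without the first); the causes were not tested.

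The count of all genes called in FoxA2-Cre hybrids (170) was 113 with normexp, 101 with array weights, 0 with slide row or column as a block or with the compared arrays alone, and 61 to 558 with arrays left out (lowest without either pooled unfused or GFAP-Cre hybrid array, highest without the second FoxA2-Cre unfused array). Row and group coincide on that slide, so its row term comes from the other slide. Between FoxA2-Cre unfused and pooled unfused cells (53) it was 16 with all spots, 26 with quantile scaling, 0 with row or column as a block, 743 with array weights, 1698 with the compared arrays alone and 0 to 2720 with arrays left out. It rose from 0 to 2279 in R26Y hybrids and from 0 to 2148 between GFAP-Cre and R26Y hybrids without the first R26Y array. Replicate numbers did not pair the samples (r of replicate deviations between groups -0.071 to 0.073); with the replicate block the counts were 105 in FoxA2-Cre hybrids and 0 between unfused groups, and 0 members were called in the tested comparisons. The median of all genes in FoxA2-Cre hybrids was 0.36, and 0.71 with normexp, 0.12 with quantile scaling and 0.03 with the authors' matrix. Between the unfused groups it was -0.46, and 0.72, 0.39 and 0.06 with normexp, all spots and quantile scaling. Of the 10 nearest genes, 1 remained with normexp, 3 with all spots, 2 with quantile scaling, 1 with the authors' matrix and 0 to 9 with arrays left out. Scan date did not divide the arrays of a slide, so its block was not run. With 2 arrays a group and 19.8% to 49.2% of spots well above background on the FoxA2-Cre slide, Ngp, Ltf, Mmp8 and Mmp9 are limited by signal there.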
